A study of Mus musculus with 22 samples.

Results

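The exons described here are the skipped-exon events of ubiquitin pathway genes in mouse embryonic stem (ES) cells. A skipped-exon event is an internal exon with a flanking exon on each side, which a transcript can include or leave out. An event was a member when its whole span lay within the mm10 span of a protein-coding gene whose symbol starts with Ube, Usp, Ubr, Rnf, Trim, Fbx or Cul, with Usp1 left out. This gave 253 of 10873 events, in 235 of 10148 distinct exons. Of 345 genes that match the rule, 135 held an event, and 64 of them held several. Events of 1 gene are not independent, since many share an exon and its reads.

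RNA was sequenced from 14 samples in 7 groups of 2 replicates, and the study asked whether heterochromatin protein 1 (HP1), a family of proteins that bind methylated histone H3, is involved where DNA methylation affects splicing. WT cells are the R1 line, and TKO cells are a separate ES line that lacks the DNA methyltransferases Dnmt1, Dnmt3a and Dnmt3b, so line and loss of methylation cannot be told apart. WT cells were transfected with siRNA against HP1alpha, HP1beta or HP1gamma at 90 nM each, or against all 3 at 60 nM each, called the triple knock-down here. TKO cells received the siRNAs against HP1alpha, HP1beta and HP1gamma at 80, 80 and 120 nM. Cells were harvested 48 h later. All cells were grown on gelatin without feeder cells in medium with leukaemia inhibitory factor, and no group with a control siRNA was labelled. The replicates of each group were pooled by the authors before deposit, so each group was 1 library, no value has a replicate error, and each test compares libraries rather than conditions. Libraries of WT and TKO were read as 50-base single reads and the 5 knock-downs as 101-base read pairs on another instrument, so knock-down, transfection and platform cannot be told apart whenever a knock-down is set against untransfected cells. TKO against WT, on either platform, and knock-down against knock-down are free of that difference.

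Ubiquitin is a small protein that is attached to other proteins in a relay. An activating enzyme (E1) passes it to a conjugating enzyme (E2), and a ligase (E3) joins the E2 to the substrate, which is then degraded, moved or altered in activity. RING ligases such as the Rnf and Trim families bring E2 and substrate together, HECT ligases carry ubiquitin themselves, cullins are scaffolds that hold F-box proteins as exchangeable substrate receptors, Ubr proteins read destabilising N-terminal residues, and ubiquitin-specific proteases (Usp) remove ubiquitin again.

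The libraries held 4677236 to 25941844 reads over all events, most in WT and fewest in the triple knock-down. WT listed 245 members, TKO 253 and the knock-down libraries 159 to 209, and 153 of the 253 were listed in all 7 libraries (60.5%, against 56.5% of all events). Distinguishing reads of the median member numbered 104 in WT, 130 in TKO and 51 to 65 after knock-down. A distinguishing read fits only the transcript with the exon or only the one without it. In 47 members no library reached 20 of them, so these were never tested. The siRNA targets were lower in their own knock-down than in the other single knock-downs. The event-read ratios were 0.280 for Cbx5 (HP1alpha), 0.215 for Cbx1 (HP1beta) and 0.378 for Cbx3 (HP1gamma). In the triple knock-down, set against the same libraries, they were 0.670, 0.285 and 0.474. In that of TKO cells they were 0.461, 0.544 and 0.680. The latter set TKO cells against WT cells, so line and knock-down cannot be told apart there. Cbx3 was at 838 RPM in untransfected WT cells but at 22.4 and 23.8 RPM in single knock-downs of the other targets. There Cbx5 went from 183 to 41.2 and 34.8, and Cbx1 from 227 to 254 and 282. With its own siRNA Cbx3 was at 8.71 RPM, so its ratios compare low levels, and the cause was not tested. Dnmt3a and Dnmt3b transcripts in TKO were at 0.442 and 0.142 of WT. Of 16 ES cell markers 6 had an event, with a summed level of 3552 to 5055 RPM. Of 18 markers of differentiated cells 3 or 4 had one, summing to 509 to 997 RPM. Sox17, an endoderm gene, was listed in the 2 TKO libraries only. The part of these markers in the results was not tested.

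Most member exons were either nearly always included or nearly always skipped. The inclusion level is the fraction of transcripts that include the exon, from 0 to 1, as deposited by the authors. In WT 104 members had a level of at least 0.9, 58 had at most 0.1, and 83 lay between. The median level was 0.72 in WT, 0.71 in TKO and 0.66 to 0.72 after knock-down. Over the distinct exons the median length was 108 nt, against 106 nt for all exons, with a range from 16 nt (Triml2) to 2095 nt (Fbxl12). A length divisible by 3, which keeps the reading frame within coding sequence, was found in 97 exons (41.3%, against 46.6% of all). The introns on either side had median lengths of 2408 and 2361 nt, against 1939.5 and 1904 nt. Whether an exon is coding or in an untranslated region was not analysed here.

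The role groups differed in how their WT levels were spread. Usp proteases had 46 events in 27 genes, and 28 of the 45 listed in WT were at 0.9 or above. The Ube3 and Ube4 ligases had 9 events in 3 genes, 7 of them at 0.9 or above. Cullins had 11 events in 5 genes, 6 at 0.9 or above and 5 at 0.1 or below, with none between. Ube2 enzymes had 37 events in 16 genes and Rnf ligases 67 in 31 genes, and 13 and 24 of those listed in WT lay between. Fbx receptors had 43 events in 27 genes, 20 of them between, Trim proteins 33 in 22 genes, 14 between, and Ubr proteins 7 in 4 genes, 2 between.

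**Figure D1:**
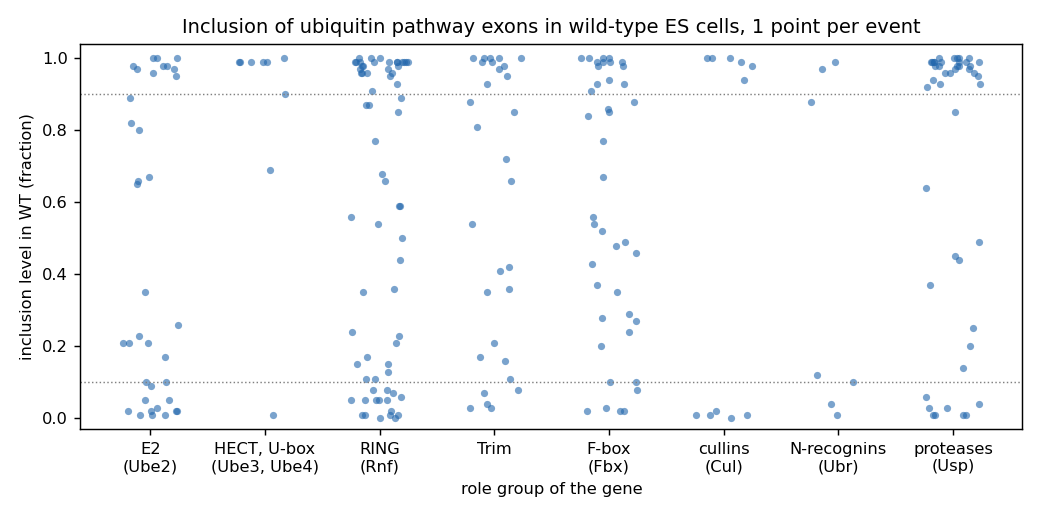
Inclusion level in the WT library (y axis, fraction of transcripts) of each ubiquitin pathway event listed there, 1 point per event, grouped by the role of the gene (x axis). Dotted lines mark 0.9 and 0.1. Cullin exons sit only above the upper or below the lower line, while F-box, RING, Trim and E2 exons also fill the range between.

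In Ube2, Ube3 and Ube4, Fbx, cullin and Usp genes the best covered exon of the group was at 0.94 or above in every library. Ube2k, an E2 that builds lysine-48 chains, had a 129-nt exon (chr5:65594420-65594548) at 1.00 throughout, over 13004 distinguishing reads. Usp39, a spliceosome component of the protease family, had one at 0.98 to 1.00, Fbxw2 at 0.96 to 1.00, Ube4b at 0.94 to 1.00 and Cul2 at 0.99 to 1.00. The best covered Rnf exon, in Rnf181, was at 0.89 to 0.99, and that of Triml2 at 0.87 to 0.99. In Ubr4, a very large N-recognin, a 105-nt exon was at 0.97 in WT and TKO and at 0.78 to 0.87 in the knock-downs.

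Symbols do not always name the transcript that carries the exon. For 198 of the 253 events the strand of the gene was known, and 10 of them lay on the opposite strand, in 6 genes. The 108-nt exon inside Fbxl2 (chr9:113959376-113959483) lies on the strand of Ubp1, a transcription factor gene that also spans it, and 4 events inside Rnf121 lie on the strand of Xndc1. In all, 14 events lay within a second gene too. Values of these exons are given with that mark.

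TKO against WT in untransfected cells was the comparison with the most reads, and few members passed it. Of 186 members tested, 2 rose and 2 fell, which is 2.15% and lies below the 4.57% called among all 7695 exons tested. Among all exons 3.18% rose and 1.39% fell. A call needed an adjusted p of at most 0.05 by Fisher's exact test, adjusted by the Benjamini-Hochberg method over all exons tested, and a difference in level of at least 0.1. By the same test 11 members had an adjusted p within 0.05, most with smaller differences. The 4 called exons were in 3 Rnf genes and 1 Usp gene, and none of the 28 Ube2, 28 Fbx, 17 Trim, 11 cullin, 9 Ube3 or Ube4 and 6 Ubr events tested was called.

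**Figure D2:**
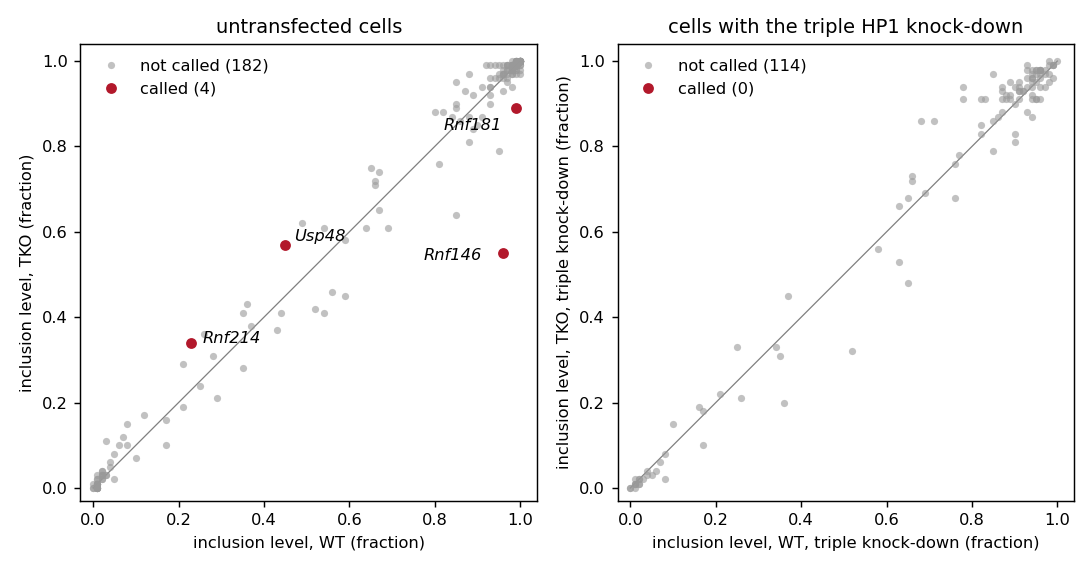
Inclusion level of each tested ubiquitin pathway exon in TKO (y axis) against WT (x axis), for untransfected cells on the left and for cells with the triple HP1 knock-down on the right; both axes are fractions and the line marks equal levels. Red points are the called exons, 4 of 186 on the left and 0 of 114 on the right, and Rnf146 lies farthest from the line.

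Rnf146 had the largest difference. It encodes a ligase that recognises poly-ADP-ribosylated proteins such as axin and so acts on Wnt signalling. Its 61-nt exon (chr10:29361285-29361345) had a level of 0.96 in WT (deposited interval 0.86 to 1.00) and 0.55 in TKO (0.45 to 0.64). WT had 53 reads for inclusion and 0 for skipping, and TKO had 68 and 43, an inclusion share of 61.3% (95% exact Clopper-Pearson interval 51.5% to 70.4%). Fisher's exact test gave an adjusted p of 1.3e-07. The same exon was listed a second time, with an upstream intron of 618 in place of 638 nt, and there it was at 0.59 in WT and 0.45 in TKO, with 66 and 36 reads in WT against 56 and 53 in TKO. This second event was not called, so the size of the difference at this exon depended on which upstream splice site the event was built on. In the single knock-downs of WT cells the first event was at 0.69 for HP1alpha, 0.55 for HP1beta and 0.48 for HP1gamma, all below WT and around the TKO level, and it was called in each (adjusted p of 0.00535, 7.78e-05 and 7.03e-07, Fisher's exact test). The second event was at 0.50, 0.45 and 0.50 in these libraries and was not called in any (adjusted p of 0.72, 0.383 and 0.756, Fisher's exact test). Neither event was listed in either triple knock-down.

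Rnf181, a small RING ligase, was the deepest of the 4. Its 128-nt exon (chr6:72361412-72361539) was at 0.99 in WT (0.97 to 1.00) and 0.89 in TKO (0.86 to 0.91). Skipping reads numbered 0 of 867 in WT and 52 of 1547 in TKO, so inclusion took 100% (95% exact interval 99.6% to 100%) and 96.6% (95.6% to 97.5%) of the distinguishing reads. Fisher's exact test gave an adjusted p of 7.26e-09. A second event of this exon, with an upstream intron of 736 in place of 701 nt, was at 0.98 in WT and 0.99 in TKO, with 590 and 1005 reads for inclusion and 0 for skipping in both. The difference was thus seen with only 1 of the 2 upstream exon ends.

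Usp48 and Rnf214 rose. Usp48 is a protease that acts on histone H2A among other substrates, and its 54-nt exon (chr4:137636934-137636987) was at 0.45 in WT (0.41 to 0.50) and 0.57 in TKO (0.53 to 0.62). Reads for inclusion and skipping were 251 and 169 in WT and 336 and 151 in TKO. The adjusted p by Fisher's exact test was 0.048, just within the threshold, and with the null odds ratio set to the median of exons of like length (a length-matched null) it was 0.775. That median was taken over exons with at least 5 inclusion and 5 skipping reads in both libraries, and the null was applied to all exons tested. With that null 3 members were called in TKO against WT (1.61%, against 4.37% of all exons), and under the triple knock-down still 0 were (0.492% of all exons). Rnf214, a RING gene, had a 105-nt exon (chr9:45866947-45867051) at 0.23 in WT (0.15 to 0.34) and 0.34 in TKO (0.23 to 0.47). The reads, 18 and 22 in WT against 26 and 0 in TKO, gave an adjusted p of 2.46e-05 by Fisher's exact test, but the deposited intervals overlapped.

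Some members passed on reads but not on size. Trim6, a Trim ligase, came nearest: its 83-nt exon (chr7:104221216-104221298) was at 0.08 in WT and 0.15 in TKO, with 33 and 226 reads against 65 and 208 (adjusted p of 0.0158, Fisher's exact test). Usp7, a protease that stabilises Mdm2 and p53, had a 175-nt exon at 0.06 in WT and 0.10 in TKO (adjusted p of 0.00576, Fisher's exact test). Usp14, a protease bound to the proteasome, had a 105-nt exon at 0.98 in WT and 1.00 in TKO (adjusted p of 0.00117, Fisher's exact test). Trim37, a ligase that limits centriole assembly, had a 123-nt exon at 1.00 in WT and 0.97 in TKO, with 0 of 878 skipping reads in WT and 16 of 1134 in TKO (adjusted p of 0.00261, Fisher's exact test). In Trim26 the level of a 76-nt exon was 0.95 in WT and 0.79 in TKO with no skipping read in either library (150 and 106 for inclusion), so the level moved without a change in the reads tested.

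Under the triple knock-down, where both lines were transfected and read on the same platform, no member was called between TKO and WT. Of 114 members tested 0 passed Fisher's exact test after adjustment and 5 had an unadjusted p below 0.05, while 0.469% of all 4473 exons tested were called, 0.246% higher and 0.224% lower. The siRNA doses differed between the lines, and these libraries had fewer reads. The 5 exons were 3 events of Uspl1, a SUMO protease, and 1 each of Usp4 and Fbxo34. A 104-nt exon of Usp4 was at 0.85 in WT and 0.97 in TKO, with 6 of 131 skipping reads against 1 of 260. The 127-nt exon of Uspl1 was at 0.68 and 0.86. Usp48 was at 0.37 in WT (0.28 to 0.47) and 0.45 in TKO (0.36 to 0.54), with overlapping intervals, and Rnf181 at 0.95 and 0.98. Rnf146 was not listed in these libraries, and Rnf214 only in TKO.

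Zelen's exact test, which compares odds ratios, asked whether the TKO to WT difference depended on the triple knock-down, which is the same as asking whether the knock-down difference depended on the line. Of 112 members tested 2 passed at an adjusted p of at most 0.05 (1.79%, against 2.69% of all 4344 exons), and 8 had an unadjusted p below 0.05. The 128-nt exon of Rnf181 passed, with 0 of 867 and 52 of 1547 skipping reads in untransfected WT and TKO but 3 of 416 and 2 of 1004 under the triple knock-down (adjusted p of 0.00775, Zelen's exact test). Its level was 0.10 lower in TKO than in WT in untransfected cells and 0.03 higher under the knock-down. The second event of this exon, with the longer upstream intron, did not pass. It had 0 skipping reads in untransfected WT and TKO, and 0 and 1 under the triple knock-down.

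**Figure D3:**
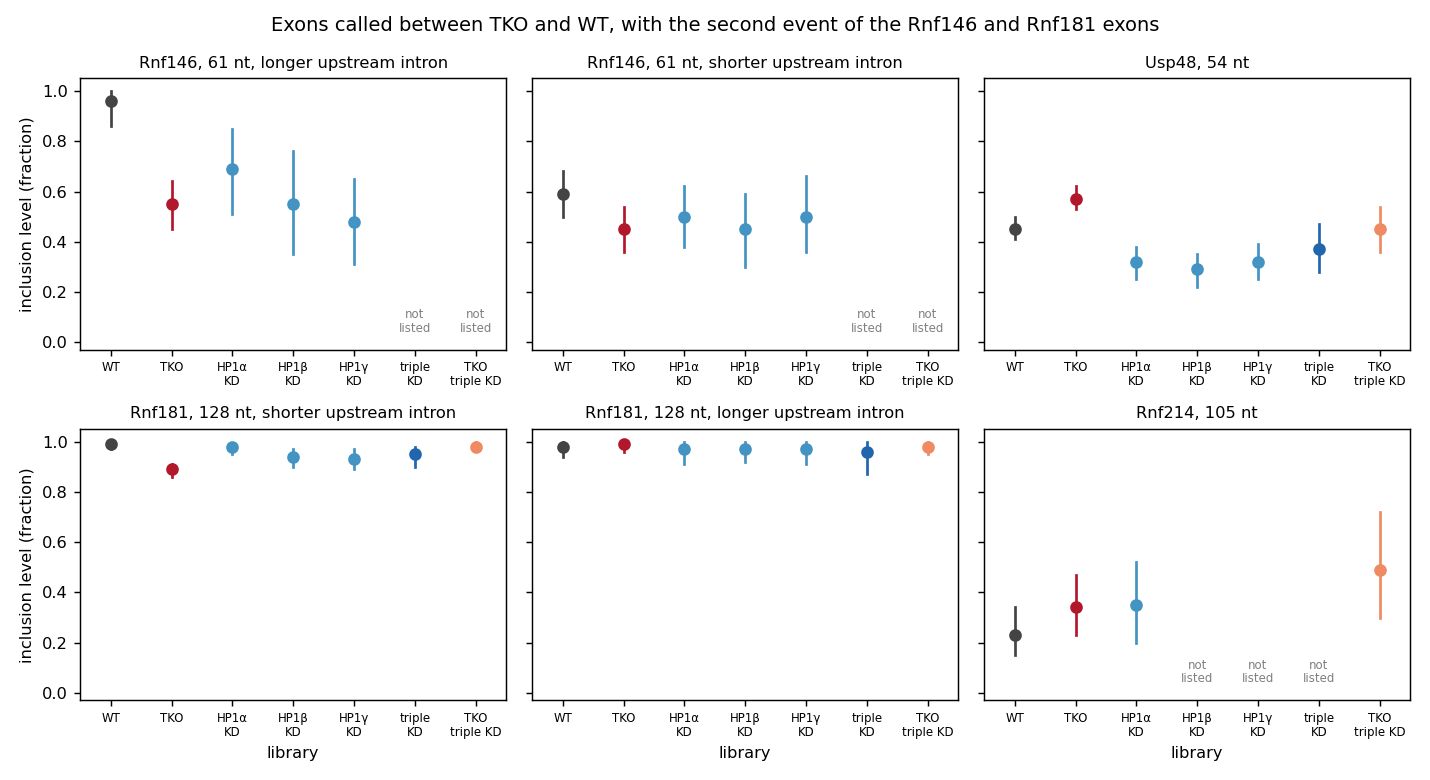
Inclusion level (y axis, fraction) of ubiquitin pathway exons in each of the 7 libraries (x axis; KD, knock-down). Points are the deposited levels and bars the deposited intervals of 1 pooled library each. The 2 Rnf146 panels and the 2 Rnf181 panels show the same exon with different upstream intron lengths, and only the first of each pair has TKO below WT by at least 0.1 with intervals that do not overlap.

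Among the knock-downs of WT cells no member was called in any of the 6 pairs of libraries. Of 158 members tested in at least 1 pair 0 passed Fisher's exact test, each pair had 1 to 3 members with an unadjusted p below 0.05 (11 in all), and 0.0169% of 5923 exons were called. Over the 5 knock-down libraries, TKO included, 110 members had at least 20 distinguishing reads in each. The median range of their level was 0.05, as for all such exons, and 88 stayed within 0.1. Among the widest were a 77-nt exon of Rnft1, at 0.66 (HP1gamma) to 0.91 (TKO triple), and the 16-nt exon of Triml2, at 0.40 (HP1gamma) to 0.65 (triple). The 110-nt exon of Fbxo34 ranged from 0.56 (HP1gamma) to 0.76 and the 127-nt exon of Uspl1 from 0.68 (triple) to 0.86 (TKO triple). None of these ranges has a replicate error.

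Knock-downs against untransfected cells gave more calls, most of them lower; the counts go by the deposited level. All 5 comparisons carry the change of platform and transfection, and the 4 in WT cells share the WT library. In these 5 comparisons the median odds ratio was below 1 in every one of the 8 length classes. It was taken over exons with at least 5 inclusion and 5 skipping reads in both libraries. Lower inclusion was thus the general direction among such exons and not one of these genes alone. In HP1alpha 3 members rose and 20 fell of 156 tested, 14.7% against 11.8% of all exons (1.64% higher and 10.2% lower). In HP1beta 4 rose and 17 fell of 153, 13.7% against 11.8% (1.92% and 9.91%). In HP1gamma 2 rose and 14 fell of 128, 12.5% against 11.4% (1.6% and 9.84%). In the triple knock-down 4 rose and 15 fell of 115, 16.5% against 11.2% (1.83% and 9.37%). In TKO cells, set against TKO, 1 rose and 6 fell of 129, 5.43% against 12.3% (1.31% and 10.9%). The members' shares were above those of all exons in the 4 comparisons with WT and below in TKO cells, and neither gap was tested. The length-matched null gave fewer calls in all 5. There 15 members were called in HP1alpha (9.62%, against 9.13% of all exons), 13 in HP1beta (8.5% against 8.63%), 10 in HP1gamma (7.81% against 8.61%), 14 in the triple knock-down (12.2% against 7.91%) and 6 in TKO cells (4.65% against 8.33%). With that null the members' share was thus close to that of all exons in the 3 single knock-downs.

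**Figure D4:**
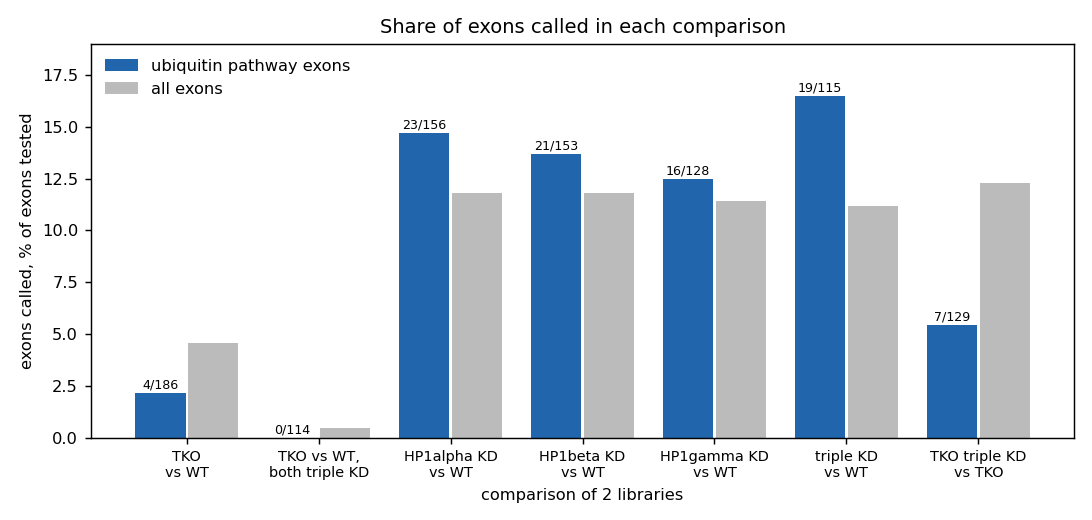
Share of exons called in each comparison of libraries (y axis, percent of exons tested), for ubiquitin pathway exons (blue) and for all exons (grey), with the called and tested member counts above the blue bars. KD, knock-down. Blue bars are taller than grey in the 4 knock-down comparisons with WT, and lower in the 3 comparisons that involve TKO.

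E2 enzymes had the largest differences. Ube2v1 and Ube2v2 encode E2 variants without a catalytic cysteine that pair with Ube2n to build lysine-63 chains, and each has a 126-nt exon among the members. The Ube2v1 exon (chr2:167610304-167610429) was at 0.82 in WT and 0.88 in TKO, and at 0.05, 0.04, 0.05, 0.04 and 0.03 in the HP1alpha, HP1beta, HP1gamma, triple and TKO triple knock-downs. It was called in all 5 comparisons, with adjusted p from 3.71e-42 to 2.5e-12 by Fisher's exact test. The level fell further than the share of inclusion among distinguishing reads, which was 100% of 1032 in WT and 58.3% of 24 in the triple knock-down (95% exact interval 36.6% to 77.9%). The Ube2v2 exon (chr16:15577015-15577140) was at 1.00 in WT, 0.99 in TKO and 0.02 to 0.03 after knock-down. WT had 491 inclusion and 0 skipping reads, and HP1alpha had 0 and 28 (adjusted p of 1.22e-44, Fisher's exact test). In the HP1gamma, triple and TKO triple libraries this exon had under 20 distinguishing reads and was not tested. No source used here says how reads that map to near-identical gene copies were treated, and both exons are uncertain on that account.

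Ube2j2 and Ube2j1 encode E2 enzymes anchored in the endoplasmic reticulum, where they serve degradation of misfolded proteins. A 163-nt exon of Ube2j2 (chr4:155946255-155946417) was at 0.66 in WT, 0.72 in TKO, and 0.13, 0.13, 0.17, 0.17 and 0.18 in the HP1alpha, HP1beta, HP1gamma, triple and TKO triple knock-downs. It was called in all 5, and so was its second event, with adjusted p between 1.11e-27 and 6.76e-05 by Fisher's exact test over both. In Ube2j1 a 120-nt exon was at 0.97 in WT and fell to 0.80 with HP1alpha and 0.78 in the triple knock-down (adjusted p of 0.00672 and 0.0102, Fisher's exact test), and both calls were lost with the length-matched null. Ube2f, an E2 of the Nedd8 pathway, had a 68-nt exon called in HP1alpha alone, in 1 of its 2 tested events (adjusted p of 0.007, and 0.12 in the other, Fisher's exact test). The exons of 1 gene did not all follow each other. In Ube2k a 94-nt exon was at 1.00 in WT and 0.03 to 0.19 in the knock-downs with too few distinguishing reads to test, while its 59-nt and 129-nt exons were at 0.96 or above in every library.

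Among the RING ligases of the Rnf family, Rnf138 stood on the other side. It takes part in DNA break repair, and its 108-nt exon was at 0.54 in WT, 0.61 in TKO, and 0.76, 0.78, 0.72, 0.76 and 0.68 in the HP1alpha, HP1beta, HP1gamma, triple and TKO triple knock-downs. It rose in all 4 comparisons with WT, with adjusted p from 1.74e-06 to 0.00135 by Fisher's exact test. In TKO cells it was not called, with 332 and 92 reads in the triple knock-down against 271 and 94 in TKO (adjusted p of 0.536, Fisher's exact test). Reads for inclusion and skipping were 241 and 107 in WT and 201 and 39 in the triple knock-down. Rnf114 had a 151-nt exon that fell from 1.00 to 0.87 with HP1gamma (adjusted p of 0.016, Fisher's exact test). Called exons of Rnf14, Rnf41 and Rnf8 fell by 0.10 to 0.13 in 1 or 2 comparisons each, and a 95-nt exon inside Rnf121, on the strand of Xndc1, fell from 0.98 to 0.65 with HP1beta in 1 of its 3 events (80 and 0 reads against 21 and 4, adjusted p of 0.0172, Fisher's exact test). The other two events of that exon had more reads in HP1beta and were not called, at 0.96 in WT and 0.91 (adjusted p of 0.545) and at 0.93 and 0.91 (adjusted p of 1, both by Fisher's exact test). The calls of Rnf114, Rnf121, Rnf14, Rnf41 and Rnf8 were all lost with the length-matched null, and those of Rnf138 were kept.

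Trim genes with called exons were Trim46, Trim37, Trim26, Trim33, Trim6 and Triml2. Trim46, which bundles microtubules at the start of the axon, had a 298-nt exon at 0.66 in WT and 0.27 to 0.36 in the knock-downs, over only 25 distinguishing reads in WT, and its calls in HP1beta and HP1gamma were lost with the length-matched null. The 123-nt exon of Trim37 fell from 1.00 to between 0.87 and 0.90 with HP1alpha, HP1gamma and all 3, and the 76-nt exon of Trim26 from 0.95 to 0.78 with HP1alpha and 0.84 with HP1gamma. Trim24, Trim28 and Trim33 belong to the TIF1 group of Trim proteins, which bind chromatin, and HP1 binding is known in the group. The 51-nt exon of Trim33 (chr3:103353567-103353617) was at 0.81 in WT, 0.76 in TKO, 0.73, 0.69 and 0.72 in the single knock-downs, and 0.63 and 0.66 in the triple knock-downs of WT and TKO cells. It was called in the triple knock-down of WT cells alone (66 and 30 reads against 159 and 24, adjusted p of 0.004 by Fisher's exact test), and no pair of knock-downs was called. The 3 exons of Trim24 were between 0.92 and 1.00 in all 7 libraries. In TKO cells the Trim6 exon fell from 0.15 to 0.02 (65 and 208 reads against 4 and 137, adjusted p of 7.18e-08, Fisher's exact test), and in WT it was at 0.08 before and 0.02 after, under the size asked for.

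F-box receptors with called exons were Fbxw17, Fbxw5 and Fbxo34, beside the exon inside Fbxl2 that lies on the strand of Ubp1. That last exon was at 0.85 in WT, 0.89 in TKO, and 0.27, 0.25, 0.25, 0.25 and 0.33 in the HP1alpha, HP1beta, HP1gamma, triple and TKO triple knock-downs, and it was called in all 5 comparisons. A 420-nt exon of Fbxw17 was at 0.52 in WT and 0.10 to 0.13 in the knock-downs of WT cells, with calls in all 4 that were lost in each of them with the length-matched null. Fbxw5, a receptor used by Cul4 ligases, had a 158-nt exon at 0.93 in WT and 0.62, 0.77, 0.65 and 0.66 in the HP1alpha, HP1beta, HP1gamma and triple knock-downs. It fell in HP1alpha, HP1gamma and the triple knock-down, and those 3 calls were also lost with that null, as was the call of Fbxo34 in the triple knock-down.

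No cullin and no Ube3 or Ube4 exon was called in any of the 7 comparisons of libraries. Only 7 to 11 cullin and 6 to 9 Ube3 or Ube4 events were tested in each. Of all exons 0.469% to 12.3% were called, so few calls or none would be found among so few events at those shares. Exons of Cul2 (117 nt), Cul3 (198 nt), Cul4a (173 nt), Cul4b (108 nt) and Cul5 (81 nt) were at 0.90 or above in every library, and a 70-nt exon of Cul3 was at 0.84 to 0.99. The other 5 cullin events, in Cul3, Cul4a and Cul5, were at 0.04 or below wherever they were listed. The Ubr4 exon was the only call among the Ubr genes, in HP1beta (0.97 to 0.78, adjusted p of 0.026, Fisher's exact test), and it was lost with the length-matched null.

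Usp proteases had called exons in 6 genes. Uspl1 was called in all 4 comparisons with WT at 3 events. Its 177-nt exon (chr5:149185485-149185661) was at 0.37 in WT, 0.38 in TKO, 0.16 to 0.17 in the knock-downs of WT cells and 0.10 in TKO cells, and the fall in TKO cells had an adjusted p of 3.27e-10 by Fisher's exact test. With the length-matched null the calls of this exon were lost in all 5 comparisons, and so were those of a 169-nt form of the adjacent exon in the 4 comparisons with WT. The 127-nt form of the adjacent exon was at 0.98 in WT and 0.76, 0.77, 0.69 and 0.68 in the HP1alpha, HP1beta, HP1gamma and triple knock-downs, and these 4 calls were kept. Usp9x, an X-linked protease that keeps many substrates from degradation, had a 111-nt exon (chrX:13072215-13072325) at 0.96 in WT and 0.59 in the triple knock-down (608 and 11 reads against 23 and 6, adjusted p of 0.000549, Fisher's exact test). In the single knock-downs it was at 0.79 to 0.81 and not called. Usp15, a protease of the TGF-beta pathway, had an 87-nt exon (chr10:123153041-123153127) that rose from 0.44 to 0.57 with HP1alpha, 0.65 with HP1beta and 0.63 with all 3, and was at 0.49 with HP1gamma. Usp48, higher in TKO, fell from 0.45 to 0.32 with HP1alpha and 0.29 with HP1beta (adjusted p of 0.0352 and 0.01, Fisher's exact test), and both calls were lost with the length-matched null. A 144-nt exon of Usp45 fell from 0.92 to 0.54 with HP1alpha and 0.59 with HP1beta, the second of which was lost with that null, and the 104-nt exon of Usp4 fell from 0.99 to 0.89 with HP1beta and 0.85 in the triple knock-down.

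**Figure D5:**
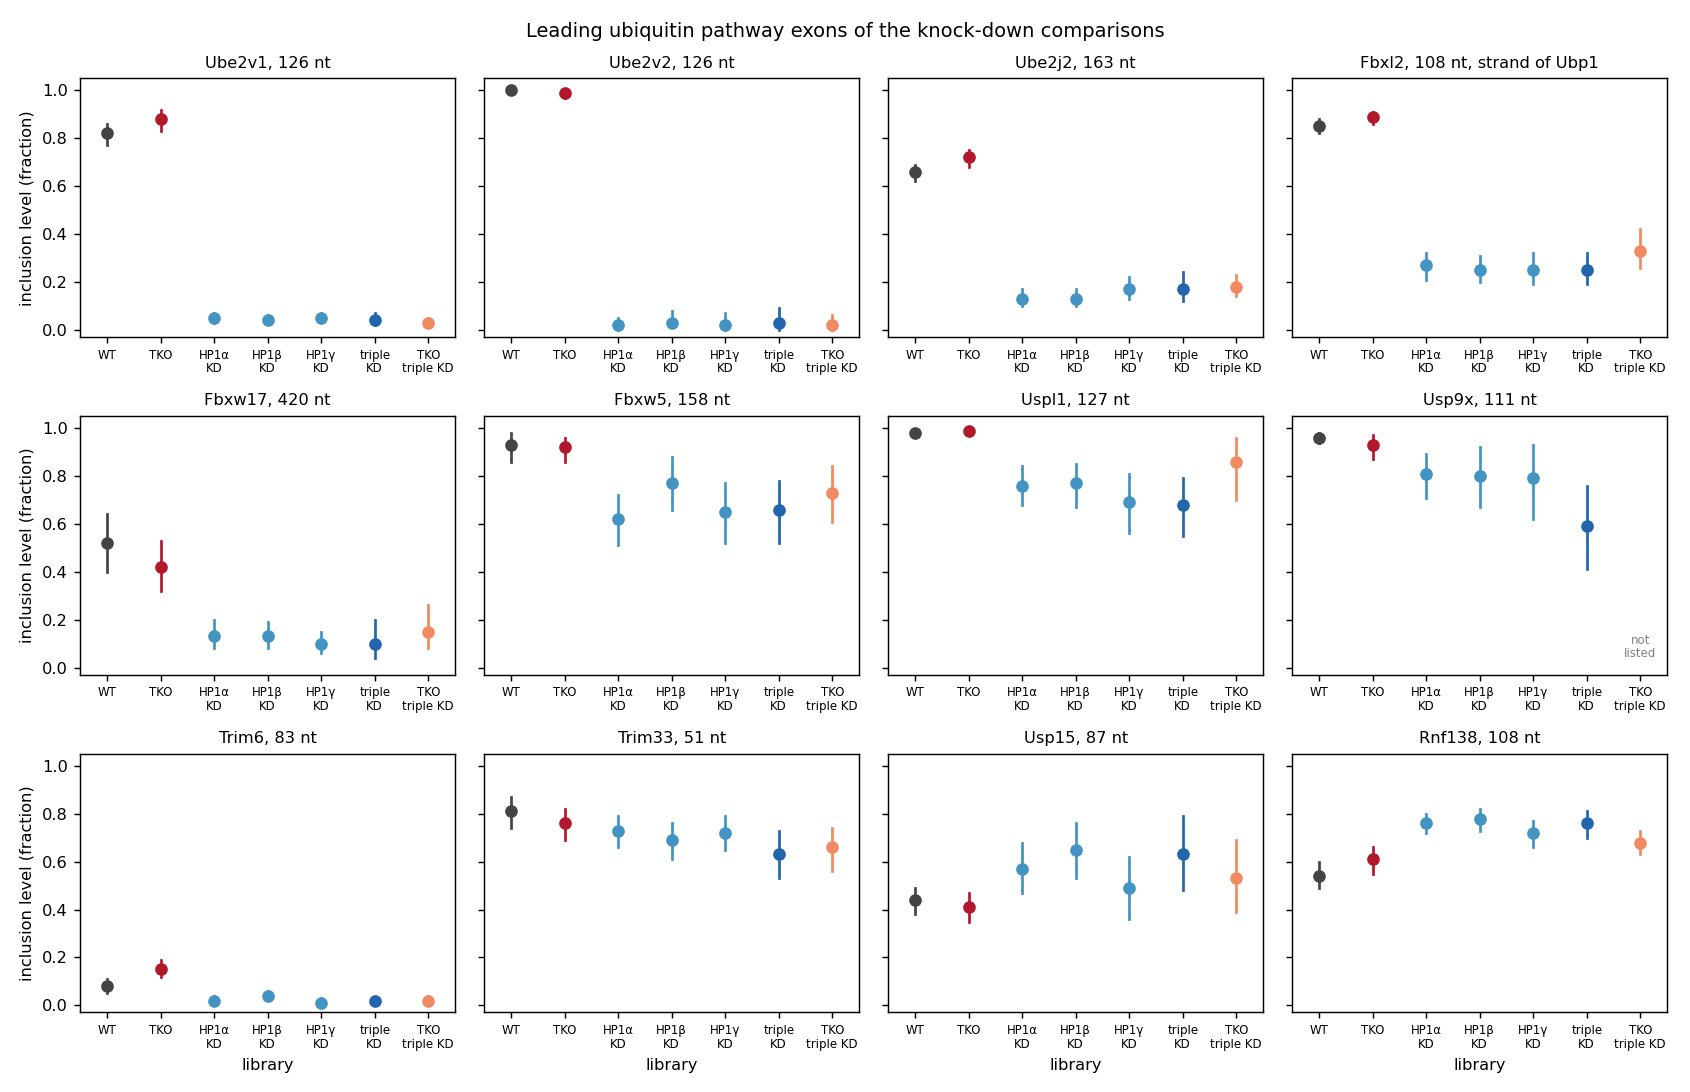
Inclusion level (y axis, fraction) of 12 ubiquitin pathway exons in each of the 7 libraries (x axis; KD, knock-down), with the deposited intervals as bars. In the Ube2v1, Ube2v2, Ube2j2, Ubp1-strand and Fbxw17 panels all 5 knock-downs lie together and below both untransfected libraries, and in the Rnf138 panel all 5 lie above them. In the Rnf138 panel the intervals of TKO and its triple knock-down overlap, and that comparison was not called.

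In a few called exons the reads and the deposited level pointed in opposite directions. Among these were Fbxo34 in the triple knock-down and the 16-nt exon of Triml2 in TKO cells. The Fbxo34 exon was at 0.54 in WT and 0.69 in the triple knock-down, with 0 of 48 and 9 of 54 skipping reads. The calls of both were lost with the length-matched null.

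For each gene, reads over its event with most reads were compared between TKO and WT as a proxy of transcript abundance. Other events of the gene were not used, and the events taken for Fbxl2 and Rnf121 lie on the opposite strand. In bulk RNA, fewer cells of a kind and less RNA per cell cannot be told apart. Of 85 member genes 0 were at least 2-fold higher and 0 at least 2-fold lower on both platforms, while 0.441% and 0.984% of all 2948 genes were. The median ratio of TKO to WT was 1.01 in untransfected cells, against 1.03 over all genes, and 0.794 under the triple knock-down, against 0.888. Cul4a, a cullin scaffold, had the highest ratio in untransfected cells, 2.40 (95% interval 2.19 to 2.63, counting error only), and 1.50 (1.19 to 1.91) under the triple knock-down. Fbxl19, which binds unmethylated CpG-rich DNA, had the lowest in untransfected cells, 0.451 (0.413 to 0.493). Under the triple knock-down its ratio was 0.521 (0.437 to 0.621), and other genes were lower there, such as Usp7 at 0.334. The 219-nt exon of Fbxl19 was at 0.84 in WT and 0.87 in TKO and was not called between them.

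Other genes of the pathway, from a list of 182 that are not members, held 175 events in 77 genes. Between TKO and WT 11 of these rose, 5 fell and 136 did not pass, so 10.5% were called against 4.57% of all exons, a gap that was not tested. The largest differences were in Traf3, a ligase of TNF receptor signalling (0.30 in WT, 0.81 in TKO, over only 20 distinguishing reads in WT), Btrc, an F-box receptor (0.91 and 0.53), and Mdm4, a partner of Mdm2 in the control of p53 (0.38 and 0.68). In the triple knock-down against WT 0 rose, 8 fell and 77 did not pass, 9.41% called against 11.2% of all exons, with Mdm2, the main p53 ligase, at 0.87 in WT and 0.49, Ubap2l at 1.00 and 0.72, and Marchf7, a membrane-associated RING ligase, at 1.00 and 0.79.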

How the data were processed

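Per the labels, 1 deposited splicing summary stands for both replicates of each of the 7 RNA groups. TopHat2, Bowtie2 and mm10 are named by the submitters' processing notes, and MISO by the column headers of the skipped-exon files; no source used here gives versions. Inclusion levels and interval bounds were deposited as fractions from 0 to 1, computed by the authors with MISO; the interval's confidence level is not stated. Per the file headers each event also has read counts by the isoforms they fit. Every listed event had at least 100 reads in these classes, so an event below that is not listed in a library.

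Events were joined by coordinates and given to genes by the RefSeq gene spans of the same build; the strand came from a RefSeq promoter table. The members and lists were chosen with earlier results of these data known. Inclusion-only and skipping-only reads were compared by a two-sided Fisher's exact test (SciPy 1.17.1) with Benjamini-Hochberg adjustment over all exons with at least 20 such reads in each library, with calls where the adjusted p was 0.05 or less and the level differed by 0.1 or more. Zelen's exact test compared odds ratios between lines. The tests were tested on simulated data. Named exons were up to 14 called members per comparison by difference, 1 per gene, plus the best covered per role, TIF1 genes, the 5 widest ranges among knock-downs and the nearest misses; a few further called or nearly called members were named after their values were seen. Exact intervals cover counting error only, since reads are not independent molecules. Some member exons are counted but not reported here by name. Bisulfite and MNase samples were not analysed here. Alternatives were other read minimums and differences, intervals apart, a length-matched null, 1 event per exon, and gene and strand filters, the last added after seeing the data.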

Additional observations from a re-analysis of the deposited data

Results flagged for a closer look

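This result concerns the 128-nt exon of Rnf181, taken with the shorter upstream intron. There the TKO to WT difference was not the same in untransfected cells and under the triple knock-down by Zelen's exact test. The log2 odds ratio of inclusion, TKO to WT, with 0.5 added to each count, was higher by 7.69 under the knock-down (1.76 against -5.93, adjusted p of 0.00775). This size rests on the 0 skipping reads in WT and depends on the added count. The event of the same exon with the longer upstream intron did not pass.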

How the results depend on the processing

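No paired analysis was possible because the replicates were pooled before deposit, and for the same reason no replicate could be left out. Asking for a difference of at least 0.2 gave 1 call in TKO against WT (4 at 0.1), 13 in HP1alpha (23), 10 in HP1gamma (16) and 10 in the triple knock-down of WT cells (19). Setting the null odds ratio by exon length gave 15 calls in HP1alpha, 13 in HP1beta (21 otherwise) and 10 in HP1gamma; the cause was not tested. With 1 event per exon, 1 of the 2 exons remained in Zelen's exact test, that of Rnf181. The other counts stayed within 1.5 times. These checks were made for 62 named calls, up to 14 per comparison by difference. Over all settings 475 results kept the call and 44 lost it, and none reversed. Of those lost, 20 were with the length null and 17 with the larger difference. Further calls given above as lost with the length null, such as those of Rnf14, Rnf41 and Rnf8, are not in these counts. Not every named result could be checked at every setting. With a minimum of 50 distinguishing reads only 41 could be, against 62 with a minimum of 10. With 1 event per exon, with events held by no other gene, and with the strand filter it was 56 each. Leaving out events on the opposite strand, an alternative added after seeing the data, removed the exons inside Fbxl2 and Rnf121 and lost no other named call. The median member had 51 to 65 distinguishing reads in the knock-downs, against 104 in WT, and what differences that depth could show was not tested.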
